A study of Homo sapiens with 5 samples.

Results

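Classical cadherins and the catenins that bind them were followed through 3 related human renal cell carcinoma lines. The set holds 9 genes: CDH1, CDH2, CDH3, CDH4, CDH6, CDH11, CDH13, CTNNB1 and CTNND1. Its members on the arrays were all probe sets, the groups of short probes read together as a single value, that the platform's probe-to-gene table assigns to 1 of these symbols alone. That gave 18 of the 54675 probe sets and 6 of the 9 genes, out of 19775 genes with probe sets of their own: 2 for CDH1, 2 for CDH2, 1 for CDH3, 6 for CDH6, 4 for CDH11 and 3 for CTNNB1. A further 4 probe sets are assigned jointly to CTNND1 and to TMX2-CTNND1, an annotated read-through transcript, so CTNND1 could not be read on its own. CDH4 and CDH13 have no probe set listed under their symbols and are not analysed here.

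RNA of the lines was hybridised to 5 Affymetrix expression arrays, each made from 6 ug of total RNA. LM2, called lung-metastatic generation 2, had 2 biological replicates. LM1, of lung-metastatic generation 1, had 1 array and no replicate. SN12C, the parental line, labelled non-metastatic, had 2 biological replicates, and the lines were profiled to find expression that goes with rising metastatic activity. No treatment is given for any line, each generation is a single line, and the labels do not say how LM1 and LM2 were derived.

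Cadherins hold neighbouring cells together through calcium-dependent binding of their extracellular domains. Inside the cell, the tail of a classical cadherin binds beta-catenin, the product of CTNNB1, which connects through alpha-catenin to actin, and catenin delta-1, the product of CTNND1, which keeps the cadherin at the membrane. In the kidney, N-cadherin (CDH2) and cadherin-6 (CDH6) are known from the proximal tubule and E-cadherin (CDH1) from more distal segments, and beta-catenin also acts in the nucleus with TCF/LEF transcription factors.

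Values are RMA signals on a log2 scale, as the authors deposited them, so a difference of 1 is a doubling; a signal measures RNA from a whole culture, in which fewer cells of a kind and less RNA per cell cannot be told apart. Array medians lay between 6.51 and 6.57. The LM1 array stood apart in a control for RNA quality: beta-actin read 3.43 log2 units higher at the 3' than at the 5' end on it, against 0.07 to 0.47 on the other arrays, and GAPDH read 2.09 higher, against -0.07 to 0.14. The 2 LM2 arrays differed by a median of 0.07 over the probe sets tested and the 2 SN12C arrays by 0.28. A filter kept the 33376 probe sets with a signal of 6.03 or more, the 40th percentile of the whole table, on at least 2 arrays. The renal epithelial markers PAX8 (9.19 to 9.82), KRT8 (12.46 to 13.21) and KRT18 (14.04 to 14.72) were high on every array. EPCAM (4.17 to 4.96) and CUBN (5.49 to 5.92) were below 6.03. In each line 6 of the 8 renal markers listed met 6.03, among them VIM (13.97 to 14.37), PAX2 (6.34 to 6.46) and LHX1 (6.06 to 6.08). PAX2 and LHX1 thus lay close to 6.03. Markers of other cell types also met it in each line: 4 of 5 for endothelium, 4 of 5 for fibroblasts and 4 of 5 for lung epithelium. So did 2 of 4 for leukocytes and all 3 for red cells. Among those below it were CDH5 (4.89 to 4.93) for endothelium and PTPRC (4.99 to 5.36) for leukocytes. Some lay far above it: ROBO4 (8.11 to 9.13), COL1A1 (9.01 to 9.04), SFTPB (7.71 to 9.04) and SFTPC (8.05 to 8.29). The highest of these values, 9.13, was close to the lowest of PAX8, 9.19. Reaching 6.03, or even a value near that of PAX8, is therefore no sign by itself that a gene was expressed.

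The promoters of CDH2 and CTNNB1 are given below because these 2 genes held the largest differences among the members with probe sets of their own. A promoter was listed for 3 of the 9 genes, the third being CDH4, which has no values here; the arrays do not measure which start is used. Sequences are from RefSeq on GRCh38.p14 and run 5' to 3' from 250 bases before an annotated start to 50 after it. The first CDH2 line is chr18:28177081-28177380 and the second, a start inside the gene, is chr18:28036592-28036891, both on the minus strand; CTNNB1 is chr3:41199255-41199554 on the plus strand. Capitals mark the E-box CANNTG and the GC box GGGCGG, each searched on both strands.
CDH2, first start: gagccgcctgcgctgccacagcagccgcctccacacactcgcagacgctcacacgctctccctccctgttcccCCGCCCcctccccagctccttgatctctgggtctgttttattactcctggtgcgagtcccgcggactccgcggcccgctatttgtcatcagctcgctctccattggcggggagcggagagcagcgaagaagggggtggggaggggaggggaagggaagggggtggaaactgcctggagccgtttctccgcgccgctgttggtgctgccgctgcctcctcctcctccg
CDH2, second start: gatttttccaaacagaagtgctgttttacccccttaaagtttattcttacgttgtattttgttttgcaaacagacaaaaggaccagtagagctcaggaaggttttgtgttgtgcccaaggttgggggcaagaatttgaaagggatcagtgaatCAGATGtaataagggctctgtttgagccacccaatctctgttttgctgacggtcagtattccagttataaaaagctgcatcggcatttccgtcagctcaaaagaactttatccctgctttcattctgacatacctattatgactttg
CTNNB1: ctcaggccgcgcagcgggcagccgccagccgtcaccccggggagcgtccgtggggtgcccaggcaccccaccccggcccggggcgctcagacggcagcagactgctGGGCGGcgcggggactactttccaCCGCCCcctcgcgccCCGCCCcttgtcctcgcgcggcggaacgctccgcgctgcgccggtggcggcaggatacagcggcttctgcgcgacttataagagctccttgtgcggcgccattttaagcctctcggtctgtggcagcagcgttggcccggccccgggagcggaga
The first CDH2 window holds 67.0% G and C, 23 CpG dinucleotides and 1 GC box, read as CCGCCC, 177 bases before the start. The second holds 40.7% G and C, 4 CpG and a single E-box, CAGATG, 97 bases before the start. The CTNNB1 window holds 74.0% G and C, 39 CpG and 3 GC boxes. Over 35116 such windows of the same length, the median was 58.7% G and C and 14 CpG, an E-box was present in 68.7% and a GC box in 45.0%. CAGGTG, the form of the E-box that the Snail and ZEB repressors are known to bind, was in 20.6% of all windows and in none of these 3. CTTTG, the core of the TCF/LEF motif, was in 47.5% of all windows and here only in the second CDH2 window, 45 bases after the start, where it is not marked. Absence says only that these letters are not in the window.

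N-cadherin signal was well above the filter in all 3 lines, and CDH2 was the only cadherin of the set with arrays of different lines more than 1 log2 unit apart. Its gene lies at chr18:27932879-28177130 (GRCh38.p14). Probe set 203440_at read 10.77 and 10.84 in LM2, 11.73 in LM1, and 10.20 and 10.27 in SN12C. Both LM2 arrays lay above both SN12C arrays, and LM1 lay above all 4. The LM2 mean was 10.81 ± 0.05 and the SN12C mean 10.23 ± 0.05 (SD, n = 2 each). LM2 was 0.57 higher than SN12C (1.49-fold, SE 0.08, 95% interval 0.34 to 0.81), which did not pass limma's test after adjustment over all probe sets (adjusted p = 0.342, unadjusted p = 0.00387). LM1 was 1.49 higher than SN12C on this probe set (2.82-fold, SE 0.09, 1.21 to 1.78, limma adjusted p = 0.0786). No probe set of the array had a lower adjusted p in that comparison, but the value was not particular to CDH2. PTPRK 203038_at, for example, had the same limma adjusted p.

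The second N-cadherin probe set, 203441_s_at, put the lines in another order. It read 9.52 and 9.61 in LM2, 8.51 in LM1, and 8.65 and 9.01 in SN12C. LM2 was again above both SN12C arrays, but LM1 was the lowest of the 5. LM2 was 0.73 higher than SN12C (1.66-fold, SE 0.16, 0.24 to 1.22, limma adjusted p = 0.42). LM1 was lower than SN12C by 0.32, with a 95% interval of -0.93 to 0.28 (limma adjusted p = 0.439); the difference was -0.50 without SN12C replicate 1 and -0.15 without replicate 2. Between the metastatic lines, LM2 minus LM1 was -0.92 on 203440_at (SE 0.09, -1.21 to -0.63, limma adjusted p = 0.106) and 1.05 on 203441_s_at (SE 0.20, 0.45 to 1.66, limma adjusted p = 0.138). The plot of N-cadherin and beta-catenin by line shows the crossing of the LM1 array. The difference between LM2 and SN12C was in the same direction on both probe sets and with any array left out (0.54 to 0.61 and 0.55 to 0.91), whereas the sign of LM1 against SN12C depends on the probe set.

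**Figure D1:**
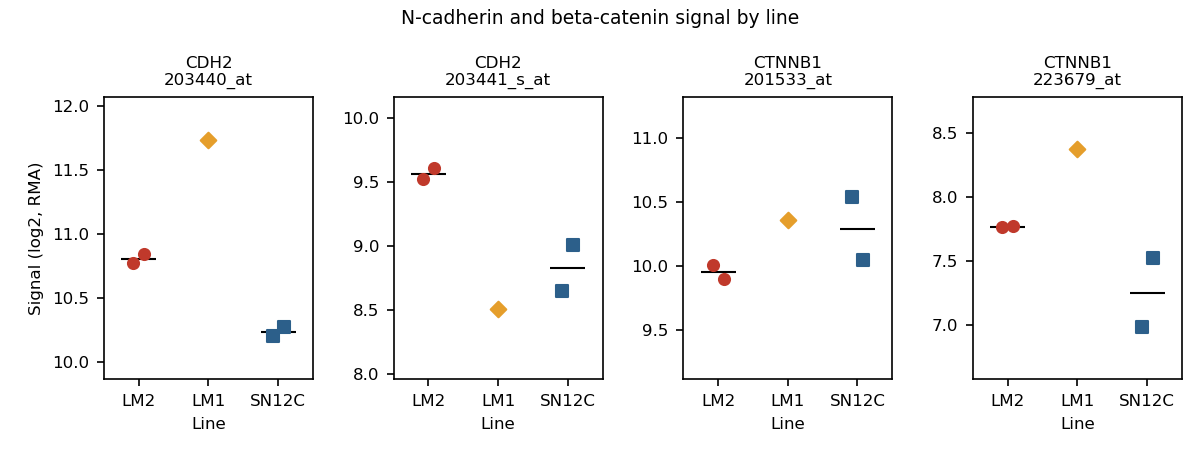
RMA signal (log2, vertical axis) of 2 probe sets each of CDH2 and CTNNB1 in LM2 (red circles), LM1 (orange diamond) and SN12C (blue squares); each point is an array, black lines are means of 2 arrays, and every panel spans the same height. LM1 has the highest CDH2 value on 203440_at (11.73) and the lowest on 203441_s_at (8.51), while LM2 lies above SN12C on both.

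The width of that disagreement was set against other genes. In LM2 against SN12C the 2 CDH2 probe sets differed by 0.16, and 70.4% of the 7195 genes with at least 2 tested probe sets differed by as much or more. In LM1 against SN12C they differed by 1.82, a spread reached by 14.5% of those genes, whose median was 0.70. In LM1 against SN12C, 57.2% of the genes had probe sets of both signs, against 39.2% in LM2 against SN12C. The LM1 array is also the one with the large 3' excess in beta-actin and GAPDH, whose part in the CDH2 values was not tested.

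E-cadherin, the main cadherin of many epithelia, stayed below the filter in every line. Its gene lies at chr16:68737292-68835537. Probe set 201130_s_at read 5.01 and 5.04 in LM2, 4.89 in LM1, and 5.11 and 4.83 in SN12C. The LM2 and LM1 values lay within the SN12C range. Probe set 201131_s_at read 4.14 on both LM2 arrays, 4.20 in LM1, and 3.97 and 4.14 in SN12C. Both were below 6.03 on all 5 arrays, so neither was tested, and the arrays spanned at most 0.29. P-cadherin (CDH3, chr16:68645310-68733771), its neighbour and a cadherin of basal epithelial layers, read 6.76 on both LM2 arrays, 6.81 in LM1, and 6.76 and 6.64 in SN12C. It was 0.06 higher in LM2 than in SN12C (-0.19 to 0.31, limma adjusted p = 0.757) and 0.11 higher in LM1 (-0.19 to 0.42, limma adjusted p = 0.611).

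Cadherin-6, a type II cadherin also called K-cadherin after the kidney, had no probe set that passed the test between the lines. The gene lies at chr5:31193686-31329146, and 3 of its 6 probe sets were tested. Probe set 232631_at, the highest, read 6.96 on both LM2 arrays and in LM1, and 7.41 and 6.87 in SN12C. The SN12C arrays lay on either side of the 3 others. Probe set 210601_at read 6.81 and 6.72 in LM2, 6.66 in LM1, and 6.67 on both SN12C arrays. Probe set 214803_at read 6.10 and 6.16 in LM2, 6.16 in LM1, and 6.33 and 6.09 in SN12C. On 210601_at LM2 lay above both SN12C arrays and LM1 just below them, and on the others the groups overlapped. The differences of LM2 from SN12C were 0.09 (-0.14 to 0.33), -0.08 (-0.44 to 0.28) and -0.17 (-0.87 to 0.52) on 210601_at, 214803_at and 232631_at, with limma adjusted p of 0.679, 0.762 and 0.742. On the last, the sign rests on SN12C replicate 1: without that array the difference was 0.10, and without SN12C replicate 2 it was -0.45. The differences of LM1 were -0.01, -0.05 and -0.17. The remaining 3 probe sets stayed between 3.69 and 5.82 and spanned at most 0.41.

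Cadherin-11, a type II cadherin best known from mesenchymal and bone-forming cells, was likewise near or below 6.03. Its gene lies at chr16:64943753-65123744. Probe set 207172_s_at read 6.64 and 6.52 in LM2, 6.41 in LM1, and 6.57 and 6.52 in SN12C. LM2 overlapped SN12C and LM1 was the lowest array. LM2 was 0.03 higher than SN12C (-0.22 to 0.29, limma adjusted p = 0.865), and LM1 minus SN12C was -0.14 (-0.46 to 0.17, limma adjusted p = 0.509). Its other 3 probe sets read between 3.50 and 4.62 and spanned at most 0.42. Over all 8 cadherin probe sets that were not tested, LM2 minus SN12C lay between -0.08 and 0.20. CDH13, an unusual cadherin held to the membrane by a lipid anchor without a catenin-binding tail, and CDH4, the retinal cadherin, are named only.

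**Figure D2:**
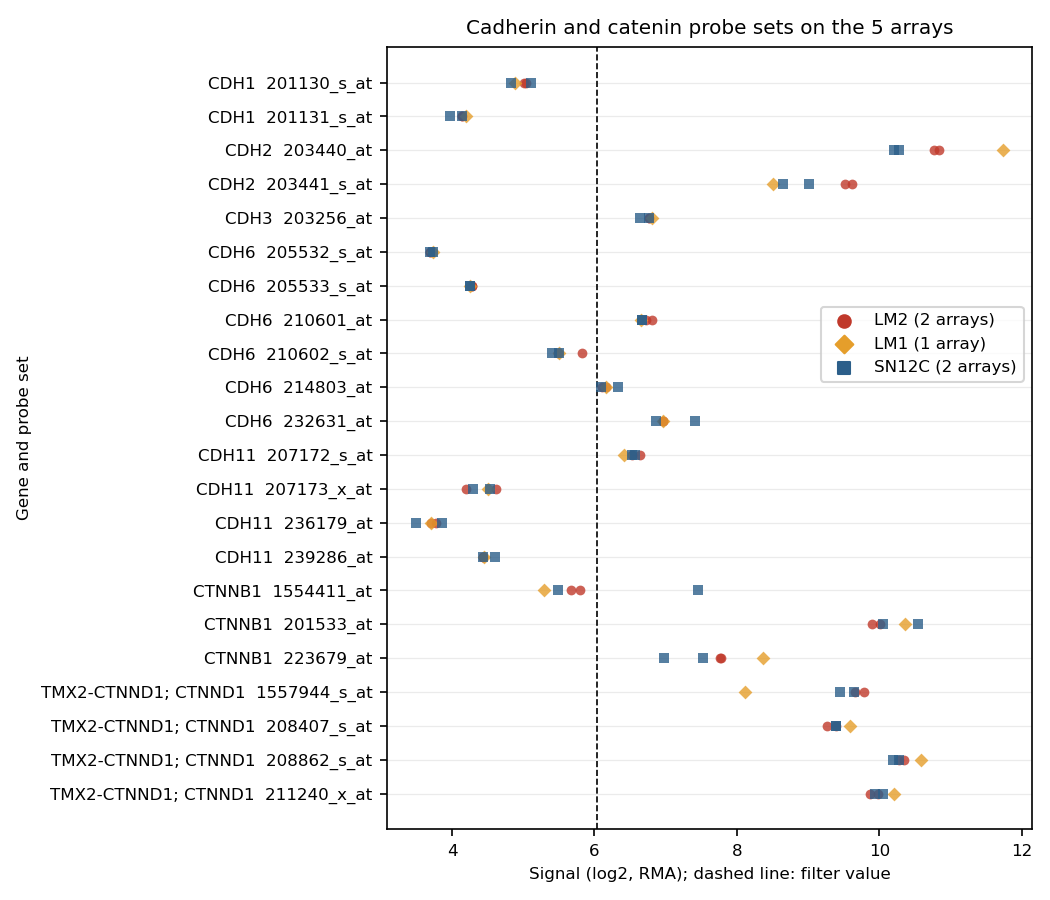
RMA signal (log2, horizontal axis) of the 18 probe sets of CDH1, CDH2, CDH3, CDH6, CDH11 and CTNNB1 and the 4 assigned jointly to TMX2-CTNND1 and CTNND1, with LM2 as red circles, LM1 as orange diamonds and SN12C as blue squares; the dashed line is the filter value of 6.03. Both CDH2 probe sets lie right of the line on all arrays, and 8 cadherin probe sets lie left of it on all arrays.

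Beta-catenin, the tail-binding partner of the cadherins and the Wnt pathway's transcriptional partner, had high signal in all lines, with probe sets that disagreed. CTNNB1 lies at chr3:41199505-41240443. Probe set 201533_at read 10.01 and 9.90 in LM2, 10.36 in LM1, and 10.54 and 10.05 in SN12C. LM2 lay below both SN12C arrays, and LM1 lay between them. The means were 9.95 ± 0.08 in LM2 and 10.29 ± 0.35 in SN12C (SD, n = 2 each), a difference of -0.34 (SE 0.21, -0.98 to 0.30, limma adjusted p = 0.679). Without SN12C replicate 1 the difference was -0.09, and without replicate 2 it was -0.59. LM1 was 0.06 higher than SN12C (-0.72 to 0.85, limma adjusted p = 0.924).

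The other tested CTNNB1 probe set, 223679_at, ran the opposite way in LM2. It read 7.76 and 7.77 in LM2, 8.37 in LM1, and 6.98 and 7.52 in SN12C. Both metastatic lines lay above both SN12C arrays, LM1 furthest. LM2 averaged 7.76 ± 0.01 and SN12C 7.25 ± 0.39 (SD, n = 2 each), a difference of 0.51 (1.43-fold, SE 0.23, -0.18 to 1.21, limma adjusted p = 0.63). The value was 0.24 without SN12C replicate 1 and 0.79 without replicate 2. LM1 was 1.12 higher than SN12C (2.17-fold, SE 0.28, 0.27 to 1.97, limma adjusted p = 0.155). LM2 minus LM1 was -0.60 on this probe set and -0.40 on 201533_at (limma adjusted p = 0.36 and 0.506). Probe set 1554411_at reached 6.03 on 1 array and was not tested: it read 5.80 and 5.67 in LM2, 5.29 in LM1, and 7.46 and 5.49 in SN12C, whose replicates lay 1.96 apart. In LM2 against SN12C the tested CTNNB1 probe sets differed by 0.85, a spread reached by 7.03% of the 7195 genes. In LM1 against SN12C they differed by 1.05, a spread reached by 34.3%. The direction of beta-catenin signal in LM2 thus depends on the probe set.

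Catenin delta-1 could be followed only through the probe sets it shares with TMX2-CTNND1. CTNND1 lies at chr11:57761802-57819540. Probe set 208862_s_at read 10.34 and 10.27 in LM2, 10.58 in LM1, and 10.28 and 10.19 in SN12C. Probe set 211240_x_at read 9.98 and 9.87 in LM2, 10.20 in LM1, and 10.05 and 9.94 in SN12C. Probe set 208407_s_at read 9.39 and 9.27 in LM2, 9.58 in LM1, and 9.39 on both SN12C arrays. On these 3, LM2 overlapped or touched SN12C and LM1 was the highest array. Their LM2 minus SN12C differences were 0.07, -0.07 and -0.06, with limma adjusted p of 0.73, 0.749 and 0.753, and the 95% intervals reached no further than -0.35 or 0.32. In LM1 they were 0.34, 0.20 and 0.19 higher than in SN12C (limma adjusted p = 0.185, 0.401 and 0.388).

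The remaining shared probe set, 1557944_s_at, stood apart in LM1. It read 9.79 and 9.66 in LM2, 8.12 in LM1, and 9.44 and 9.65 in SN12C. The LM1 array was the lowest of the 5 by more than 1 log2 unit, while LM2 lay just above SN12C. LM1 minus SN12C was -1.43 (2.69-fold lower, SE 0.14, -1.87 to -0.98, limma adjusted p = 0.0794), and LM2 minus SN12C was 0.18 (-0.18 to 0.54, limma adjusted p = 0.679). A low LM1 value on some probe sets of a gene and not on others was also measured for CTNNA1, alpha-catenin, whose values were looked at after the rule for naming genes had been applied: LM1 minus SN12C was -4.83 on 1558214_s_at, -0.78 on 200764_s_at, 0.10 on 200765_x_at and 0.06 on 210844_x_at, its highest probe set. On 1558214_s_at the values were 11.13 and 11.06 in LM2, 5.79 in LM1, and 9.93 and 11.32 in SN12C. The large 3' excess on the LM1 array stands beside these values too, and its part in them was not tested.

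**Figure D3:**
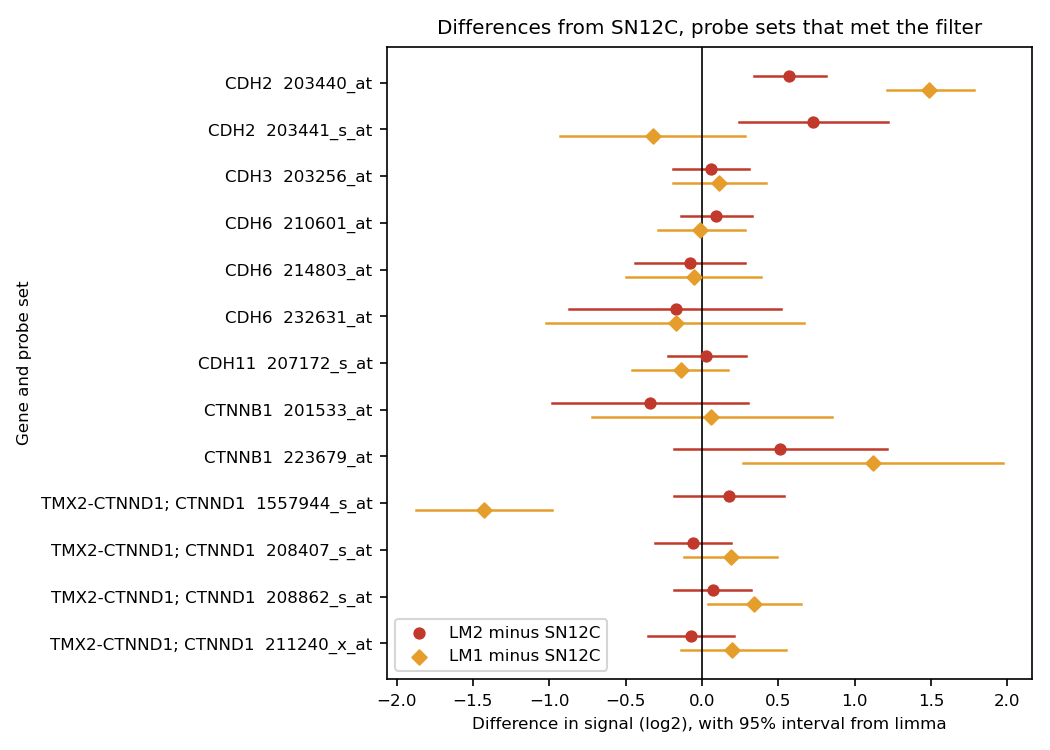
Difference in RMA signal from SN12C (log2, horizontal axis) of the 9 tested probe sets of CDH2, CDH3, CDH6, CDH11 and CTNNB1 and the 4 shared by TMX2-CTNND1 and CTNND1, for LM2 (red circles) and LM1 (orange diamonds); bars are 95% intervals from limma without adjustment for multiple tests. For LM2 the bars of both CDH2 probe sets lie right of 0; for LM1 those of CDH2 203440_at, CTNNB1 223679_at and the shared 208862_s_at lie right of 0 and that of the shared 1557944_s_at left of it.

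Of the 18 probe sets, 9 were tested, from 5 genes. None passed an adjusted p under 0.05 in limma in LM2 against SN12C, LM1 against SN12C or LM2 against LM1, and neither did any other probe set of the array: 0% were called in LM2 against SN12C, 0% in LM1 against SN12C and 0% in LM2 against LM1. At an unadjusted p under 0.05, 2 of the 9, both of CDH2, were called in LM2 against SN12C, where 9.52% of all probe sets tested (3178) were. In LM1 against SN12C 2 of the 9 were, CDH2 203440_at and CTNNB1 223679_at, against 23.2% of all (7757), a share near the background. In LM2 against LM1 2 of the 9 were, again both of CDH2 and of opposite sign, against 20.9% of all (6974). With 2 arrays against 2, an exact permutation test of a single probe set cannot go below p = 0.333, two-sided. LM1 and LM2 were set against the same SN12C arrays, so their differences are not independent of each other, and LM1's difference assumes that LM1 varies like the other lines.

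Probe sets whose arrays do not overlap between lines were counted beside their share over the whole array. In LM2 against SN12C, 4 of the 9 lay wholly higher (both of CDH2, CDH6 210601_at and CTNNB1 223679_at), against 23.7% of all probe sets tested, and 1 lay wholly lower (CTNNB1 201533_at), against 13%. In LM1 against SN12C, 3 lay higher (CDH2 203440_at, CDH3 and CTNNB1 223679_at), against 38.7%, and 3 lower (CDH2 203441_s_at, CDH6 210601_at and CDH11), against 27.7%. In LM2 against LM1, 3 lay higher (CDH2 203441_s_at, CDH6 210601_at and CDH11), against 34.1%, and 4 lower (CDH2 203440_at, CDH3 and both of CTNNB1), against 45.5%. The median difference of the 9 was 0.06 in LM2 against SN12C, -0.01 in LM1 against SN12C and -0.03 in LM2 against LM1, beside 0.03, 0.02 and -0.03 over all probe sets tested. The median size of difference, regardless of sign, was 0.17 in LM2 against SN12C for the members and for all probe sets, and in LM1 against SN12C it was 0.14 for the members and 0.27 for all.

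The genes whose signals ran most like a cadherin's over the 5 arrays were found by centring each probe set on its own mean and taking the root mean square difference. For CDH2 203440_at, which spanned 1.53 log2 units, the nearest were ERCC6L2 (0.029), NEXN (0.051) and SPICE1 (0.058). ERCC6L2 read 7.33 and 7.42 in LM2, 8.23 in LM1, and 6.77 and 6.80 in SN12C, the same order of lines as on CDH2 203440_at. For CDH6 232631_at, which spanned 0.54, the nearest were TAF1L (0.0071), SPTBN5 (0.0096) and PMFBP1 (0.01). TAF1L read 7.15 on both LM2 arrays and in LM1, and 7.60 and 7.03 in SN12C, so its pattern is likewise the gap between the SN12C replicates.

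The other cadherins were mostly below the filter. Of 16 other classical and atypical cadherins, 5 were tested, and 11 were below the filter, among them the kidney cadherin CDH16, added outside the naming rule, at 5.80 on both LM2 arrays, 5.69 in LM1, and 6.20 and 5.80 in SN12C. CDH24, a catenin-binding type II cadherin, read 7.88 on both LM2 arrays, 8.30 in LM1, and 7.66 and 7.58 in SN12C. It was higher than SN12C by 0.26 in LM2 and by 0.69 in LM1 (limma adjusted p = 0.48 and 0.0871), but its second tested probe set gave -0.06 in LM2. CDH22, CDH15 (M-cadherin of muscle) and CDH26 differed in LM2 by -0.24, 0.07 and 0.01. CDH22 was -0.01 without SN12C replicate 1 and -0.47 without replicate 2, and CDH15 and CDH26 ran from 0 to 0.13 and from -0.19 to 0.20 with 1 array left out. In this list and in each list that follows, 0 genes passed an adjusted p under 0.05 in limma in LM2 or in LM1 against SN12C. At an unadjusted p under 0.05, CDH24 was the only cadherin of the list called higher in LM2, and likewise in LM1. Over all 15024 genes, each through its highest probe set, 6.8% were called higher and 4.5% lower in LM2, and 16.9% higher and 4.88% lower in LM1. The median difference of all genes was 0.03 in LM2 and 0.09 in LM1. Regardless of p, 55.8% of all genes were higher than SN12C in LM2 and 61.0% in LM1. The counts of higher and lower genes in the lists below are to be read beside these shares.

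Among the catenins and actin linkers of the adherens junction, 14 of 15 genes were tested, 9 of them higher and 5 lower in LM2 than in SN12C, with a median of 0.19. At an unadjusted p under 0.05 limma called 3 higher in LM2 (VCL, ACTN1 and ACTN4) and none lower, and in LM1 2 higher and 1 lower. CTNND2, a catenin delta known from neurons, read 8.04 and 7.89 in LM2, 8.24 in LM1, and 6.14 and 7.23 in SN12C. Both metastatic lines were above both SN12C arrays. It was 1.29 higher in LM2 (SE 0.44, limma adjusted p = 0.541), and its other tested probe set was 1.58 higher. The 1.29 became 0.74 without SN12C replicate 1 and 1.83 without replicate 2. ACTN4, an actin cross-linker, read 11.96 and 11.60 in LM2, 11.71 in LM1, and 11.16 and 11.15 in SN12C, a difference of 0.62 in LM2 (SE 0.15, limma adjusted p = 0.442). ACTN1, its paralogue, was 0.37 higher in LM2. CTNNA3, an alpha-catenin, differed by -0.33, which became -0.03 without SN12C replicate 1 and -0.63 without replicate 2. JUP, plakoglobin, which can take the place of beta-catenin on a cadherin tail and was added outside the naming rule, differed by -0.10 (SE 0.08, limma adjusted p = 0.679).

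Nectins are immunoglobulin-type adhesion molecules that sit beside cadherins in the adherens junction. All 8 genes were tested, 5 higher and 3 lower in LM2 than in SN12C, with a median of 0.07, and at an unadjusted p under 0.05 limma called 2 higher, NECTIN3 and CADM1, and in LM1 these and PVR. CADM1, a nectin-like molecule, read 9.49 and 9.28 in LM2, 8.78 in LM1, and 7.53 and 7.93 in SN12C. The arrays of LM2 and LM1 lay above both of SN12C. It was 1.66 higher in LM2 (SE 0.19) and 1.05 higher in LM1 (limma adjusted p = 0.328 and 0.135), and its other tested probe sets were 3.67 and 1.54 higher in LM2. NECTIN3 read 9.98 and 9.87 in LM2, 9.76 in LM1, and 9.14 and 9.39 in SN12C, a difference of 0.66 in LM2 (SE 0.13, limma adjusted p = 0.395). Its other probe set was 1.18 higher. NECTIN2 and NECTIN4 differed in LM2 by 0.27 and -0.25, values that became 0.11 and 0 without SN12C replicate 1 and 0.44 and -0.50 without replicate 2; without LM2 replicate 1 NECTIN2 was 0.17.

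The cadherin turnover and processing list holds receptor tyrosine phosphatases that sit at cell contacts. Of 14 genes, 12 were tested, 7 higher and 5 lower in LM2 than in SN12C, with a median of 0.02; at an unadjusted p under 0.05 limma called PTPRK higher and PTPRM and PTPRF lower. In LM1 it called 3 higher (CBLL1, PTPRK and FYN) and 2 lower (PTPN1 and PTPRF). PTPRF read 11.92 and 11.84 in LM2, 12.34 in LM1, and 12.95 and 12.72 in SN12C. It differed by -0.96 in LM2 (SE 0.12) and -0.50 in LM1 (limma adjusted p = 0.334 and 0.187). Its other 3 probe sets, 200635_s_at, 200637_s_at and 215066_at, differed by -1.18, -1.12 and -0.52 in LM2 and by -1.39, -2.66 and -0.66 in LM1, so LM1 was the lowest line on these 3 and LM2 on the first. PTPRM read 10.38 and 10.37 in LM2, 10.83 in LM1, and 11.05 and 10.99 in SN12C, a difference of -0.64 in LM2 (SE 0.07, limma adjusted p = 0.328). PTPRK read 9.64 and 9.80 in LM2, 10.48 in LM1, and 9.23 and 9.27 in SN12C. It was 0.47 higher in LM2 and 1.23 higher in LM1 (limma adjusted p = 0.396 and 0.0786). PTPN1, a phosphatase known to bind the N-cadherin tail, differed by -0.33 in LM2, or -0.51 without SN12C replicate 1 and -0.16 without replicate 2. Its other tested probe set, 217686_at, differed by 0.04 in LM2 and by -1.28 in LM1.

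**Figure D4:**
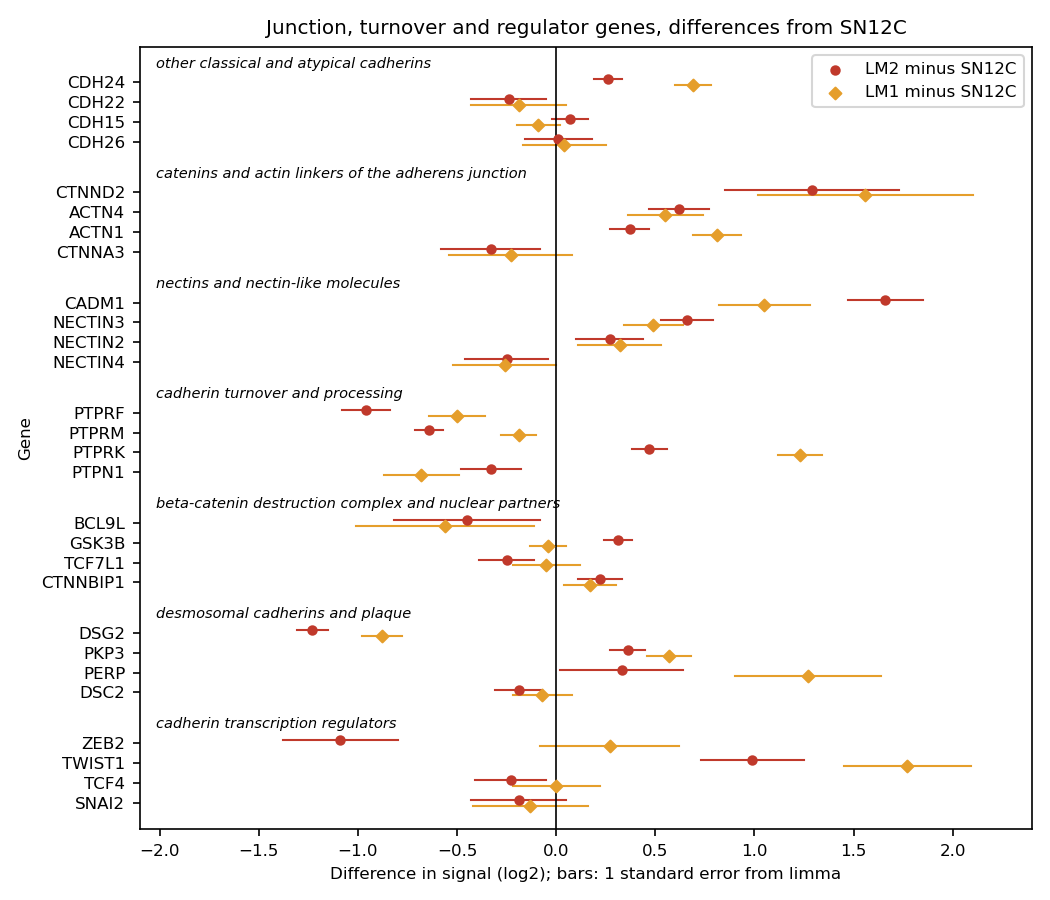
Difference in RMA signal from SN12C (log2, horizontal axis) for LM2 (red circles) and LM1 (orange diamonds) of the up to 4 genes per list with the largest LM2 difference, each through its highest probe set; bars are 1 standard error from limma. CADM1 and CTNND2 lie furthest right for LM2 (1.66 and 1.29) and DSG2 and ZEB2 furthest left (-1.23 and -1.09); no gene passed the adjusted threshold.

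In the beta-catenin destruction complex and its nuclear partners, 13 of 14 genes were tested, 7 higher and 6 lower in LM2 than in SN12C, with a median of 0.04. Limma called 1 higher in LM2 at an unadjusted p under 0.05, GSK3B, the kinase that marks beta-catenin for degradation. GSK3B read 9.89 and 9.92 in LM2, 9.56 in LM1, and 9.63 and 9.56 in SN12C, a difference of 0.31 in LM2 (SE 0.07, limma adjusted p = 0.434). Its other tested probe sets, 209945_s_at, 226183_at and 242336_at, were 0.38, 0.15 and 0.75 higher in LM2. In LM1 they differed from SN12C by 1.01, 0.52 and -1.13, so the place of LM1 depends on the probe set. In LM1 limma called 3 higher, AXIN1, BTRC and TCF7L2. TCF7L2 was 1.04 higher on its highest probe set, but 5 of its 6 other tested probe sets had the opposite sign (range -1.56 to 0.11). BTRC was 0.40 higher, and 1 of its 2 other tested probe sets had the opposite sign (-0.43). AXIN1 had no other tested probe set. BCL9L, a coactivator of beta-catenin, differed by -0.45, and by 0.01 without SN12C replicate 1 and -0.90 without replicate 2. TCF7L1 and CTNNBIP1, which blocks the binding of beta-catenin to TCF factors, differed by -0.25 and 0.22. TCF7L1 was -0.40 without LM2 replicate 1 and -0.10 without LM2 replicate 2, and CTNNBIP1 was 0.13 without SN12C replicate 2.

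Desmosomal cadherins form a separate adhesive junction tied to intermediate filaments. Of 9 genes of the desmosome, 6 were tested, 3 higher and 3 lower in LM2 than in SN12C, with a median of 0.09. DSG2, a desmoglein found in simple epithelia, read 8.71 and 8.77 in LM2, 9.09 in LM1, and 10.02 and 9.91 in SN12C. The arrays of both metastatic lines lay below both of SN12C. It differed by -1.23 in LM2 (SE 0.08) and -0.88 in LM1 (limma adjusted p = 0.328 and 0.0825). Its other probe set, 1553105_s_at, differed by -0.66 in LM2 and -2.77 in LM1. That probe set read 7.16 and 7.18 in LM2, 5.05 in LM1, and 7.38 and 8.27 in SN12C. PKP3, a plaque protein, was 0.36 higher in LM2, and PERP, a desmosomal membrane protein, and DSC2 differed by 0.33 and -0.19. Single arrays move the last pair: PERP was 0.07 without SN12C replicate 1 and 0.06 without LM2 replicate 1 (0.60 without replicate 2 of either line), and DSC2 was -0.06 without SN12C replicate 1 and -0.32 without replicate 2. At an unadjusted p under 0.05 limma called PKP3 higher and DSG2 lower in LM2, and in LM1 PKP3 and PERP higher and DSG2 lower.

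Of 12 transcription regulators of cadherin genes, 9 were tested, 5 higher and 4 lower in LM2 than in SN12C, with a median of 0.01. At an unadjusted p under 0.05 limma called TWIST1 higher and ZEB2 lower in LM2, and ZEB1 and TWIST1 higher in LM1. TWIST1, a factor known to raise N-cadherin and lower E-cadherin in carcinoma cells, read 10.24 and 10.13 in LM2, 10.96 in LM1, and 8.87 and 9.51 in SN12C. Its order of lines was that of CDH2 203440_at but not of CDH2 203441_s_at, on which LM1 was the lowest array. LM1 lay above both SN12C arrays on 38.7% of all probe sets tested, and a link between TWIST1 and CDH2 was not tested. TWIST1 was 0.99 higher in LM2 (SE 0.26) and 1.77 higher in LM1 (limma adjusted p = 0.46 and 0.112). The 0.99 became 0.67 without SN12C replicate 1 and 1.31 without replicate 2. ZEB2, a repressor of E-cadherin, read 6.27 and 6.23 in LM2, 7.61 in LM1, and 7.70 and 6.99 in SN12C, a difference of -1.09 in LM2 and 0.27 in LM1 (limma adjusted p = 0.46 and 0.726). TCF4 and SNAI2 differed in LM2 by -0.23 and -0.19. With 1 array left out, TCF4 ran from -0.41 (without SN12C replicate 1) to -0.05 (without SN12C replicate 2), and SNAI2 was -0.47 without LM2 replicate 1 and 0.10 without LM2 replicate 2.

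Whether these calls held across a gene's probe sets differed between the lines. In LM2 against SN12C, 15 genes of the lists, CDH2 among them, were called at an unadjusted p under 0.05 in limma. Of the 11 with another tested probe set, only CDH24 had one of opposite sign. In LM1 against SN12C 21 genes were called, and 12 of the 17 with another tested probe set had one of opposite sign, CDH2 among them. An opposite sign was counted at any size, such as -0.02 for CDH24 in LM1. Of all 7195 genes with at least 2 tested probe sets, called or not, 39.2% had both signs in LM2 against SN12C. In LM1 against SN12C 57.2% did. ZEB1, a repressor of E-cadherin, was 0.39 higher in LM1 on its highest probe set, with differences of -3.04 and -1.94 on its other 2. PVR, a nectin-like receptor, was 0.69 higher in LM1, with other differences between -2.30 and 0.36. Both were chosen after their values were seen. The 3' excess of the control genes on the LM1 array stands beside these values, and its part in them was not tested.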

How the data were processed

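Expression was measured on 5 Affymetrix arrays of 54675 probe sets. The values are log2 signals as deposited and were used without a further transformation. RMA and Partek made them, per the submitters' processing notes, in versions not given in the sources used here. In RMA the background is corrected, arrays are brought to 1 common distribution and the probes of a set are summarised, so a difference in total signal between arrays would not be seen. The deposited arrays did not share 1 distribution exactly, since quantile normalizing again moved some differences. LM2 minus SN12C went from 0.57 to 0.42 on CDH2 203440_at, 0.31 to 0.14 on GSK3B and -0.64 to -0.79 on PTPRM. On CDH3 it stayed at 0.06. Of the probe sets, 62 controls were left out, 41097 have 1 gene in the platform table and 11777 are not listed there. Gene coordinates come from RefSeq on GRCh38.p14.

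A mean per line over all 5 arrays was fitted with limma 3.58.1 (lmFit, eBayes) in R 4.3.3, with 2 residual and 1.21 prior degrees of freedom, and adjusted by Benjamini-Hochberg over 33376 probe sets at 0.05. The code was tested on simulated data. Many deposited values are identical: 4959 tested probe sets had equal values on both LM2 arrays and 1814 on both SN12C arrays, and 7 of the 18 member probe sets had such a pair, which shrinks their spread. No label or header says how these ties arose. Nothing says that the biological replicates were separate cultures, so p-values measure the spread between arrays.

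The members and lists were chosen with earlier results of these data known. Named were every tested probe set of a member and the highest one, up to 4 genes per list by size of LM2 minus SN12C through the highest probe set, and the 3 genes nearest to CDH2 and CDH6. CTNNA1, JUP and CDH16 were added. Alternatives covered the filter, probe set types, normalization, ties, eBayes options, the arrays used, each replicate and the replicate number. Figures used matplotlib 3.10.9.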

Additional observations from a re-analysis of the deposited data

Results flagged for a closer look

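On 3 probe sets the arrays of LM2 and LM1 lay on opposite sides of both SN12C arrays. For CDH2 203441_s_at, LM2 lay above and LM1 below, and LM2 minus LM1 was 1.05 (limma adjusted p = 0.138). For CDH6 210601_at LM2 again lay above and LM1 just below, with a difference of 0.10 (limma adjusted p = 0.687). For 1557944_s_at, shared by TMX2-CTNND1 and CTNND1, LM2 lay above and LM1 below, with a difference of 1.61 (limma adjusted p = 0.106). None of these differences between the metastatic lines passed the threshold, and LM1 has 1 array.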

How the results depend on the processing

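LM2 against SN12C gave 0 member calls under every alternative other than a left-out array, where the count was 0 to 2 (0 to 8105 of all probe sets); the 2, CTNNB1 223679_at and CDH6 232631_at, came without SN12C replicate 2, which leaves the spread to the LM2 pair. For LM1 against SN12C, quantile normalizing again gave 1 member call (CDH2 203440_at, limma adjusted p = 0.0492; 1156 over all) and leaving out tied probe sets 1 (the same probe set, 0.0497; 282 over all), and left-out arrays gave 0 to 3 (0 to 10386 over all). For LM2 against LM1 the counts over all were 325 with quantile normalizing again and 13 without tied probe sets, and left-out arrays gave 0 to 2 member calls (0 to 5776 over all), the highest without either SN12C array. LM2 and SN12C arrays of the same number hardly deviated together (r = 0.067 across 33376 probe sets). A replicate block for LM2 against SN12C called 0 of the members and 0 of all probe sets, with a lowest limma adjusted p of 0.702. CDH2 203440_at stayed between 0.42 and 0.61 in LM2 and 1.38 and 1.54 in LM1, and 203441_s_at between 0.55 and 0.91 and -0.50 and -0.15. Small differences changed sign. With quantile normalizing again, LM1 against SN12C was 0.05 on CDH6 210601_at (0.04 with arrays centred on their medians) and -0.07 on CTNNB1 201533_at, and LM2 against SN12C was -0.09 on the shared probe set 208862_s_at. With 1 array left out, LM2 against SN12C ran from -0.20 to 0.04 on CDH6 214803_at, -0.45 to 0.10 on CDH6 232631_at, -0.02 to 0.09 on CDH11, -0.19 to 0.20 on CDH26, -0.90 to 0.01 on BCL9L and -0.47 to 0.10 on SNAI2, and LM1 against SN12C from -0.17 to 0.06 on CDH6 214803_at, -0.45 to 0.10 on CDH6 232631_at and -0.18 to 0.31 on CTNNB1 201533_at. The causes were not tested. The other alternatives kept direction and side of the threshold for 542 values, reversed the direction of 4 and moved 3 across the threshold. Left-out arrays kept both for 242 values, reversed the direction of 10 and moved the rest across the threshold. Signals below 6.03 limit what can be said of CDH1, CDH6 and CDH11.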
